A study of Mus musculus with 36 samples.

Results

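In mouse liver, 455 of 1456902 fixed autosomal windows of 500 bp were lower in CpG methylation in dams than in every other group of the family. A window entered when it held at least 5 CpGs and at least 30 counts in each of 24 animals. It was taken when the mean of the 6 dams lay 15 percentage points or more below each of the means of 6 sires, 6 sons and 6 daughters, and when those 3 means lay within 10 points of one another. Percent methylation of a window is the share of methylated counts among all counts of its CpGs, and a group mean weights its animals equally. The windows were thus chosen by the methylation levels of the 4 groups in these animals, so the difference between dams and the others is described without a test. The same rule was met by 18 windows in the upward direction in dams, by 0 windows low only in sires, by 1 low only in sons and by 1 low only in daughters.

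Liver DNA was taken from 3 dams and 3 sires of the inbred strain C57BL/6N (B6), 3 dams and 3 sires of C3H/HeN (C3), and 3 sons and 3 daughters of each reciprocal cross. B6C3F1 animals had a B6 dam and a C3 sire, and C3B6F1 animals the reverse. Parents were mated at week 10 and all animals were studied at the age of 20 weeks, for dams 4 weeks after weaning. The daughters were virgins of the same age. Virgin B6 or C3 females were not analysed here, so a history of pregnancy and lactation cannot be told apart from the combination of female sex with an inbred genome. The tissue was whole frozen liver, and the promoters of the hepatocyte marker genes (10 genes, among them Alb and Ttr, 500 bp to either side of the start site) had a mean methylation of 21.7% ± 2.27 (SD, n = 6) in dams.

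CpG methylation is copied to the new strand after DNA replication and can be lost when that copying fails or when the mark is actively removed. In liver it is high over most of the genome and lower at promoters and at distal regulatory elements that bind transcription factors. Pregnancy and lactation expose the liver to prolactin, placental lactogens, growth hormone and sex steroids, and rodent liver enlarges during pregnancy. Prolactin and growth hormone act through their membrane receptors and the JAK2 and STAT5 proteins, with SOCS proteins as feedback inhibitors.

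Stretches of 7 of the windows are shown because the results below turn on them. The first 4 are the windows with the largest shortfall, the next 2 lie in introns of the prolactin receptor gene Prlr and of the von Willebrand factor gene Vwf, and the last is the window whose dam-sire difference differed most between B6 and C3 among those called by the test described further on. Each stretch has 300 bases of the plus strand of mm9, 5′ to 3′, placed inside its window to hold as many CpGs and copies of the E-box hexamer CAGCTG as possible. Capitals mark CG dinucleotides and CAGCTG.

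chr4:53325541-53325840, between genes, nearest start site AI427809: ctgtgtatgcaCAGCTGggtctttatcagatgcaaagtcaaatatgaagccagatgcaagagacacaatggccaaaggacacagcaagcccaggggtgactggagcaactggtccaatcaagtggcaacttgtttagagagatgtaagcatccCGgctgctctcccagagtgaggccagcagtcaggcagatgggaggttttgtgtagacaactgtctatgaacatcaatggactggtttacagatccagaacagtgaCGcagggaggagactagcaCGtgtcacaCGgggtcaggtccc
chr7:106453661-106453960, intron of Mtap6: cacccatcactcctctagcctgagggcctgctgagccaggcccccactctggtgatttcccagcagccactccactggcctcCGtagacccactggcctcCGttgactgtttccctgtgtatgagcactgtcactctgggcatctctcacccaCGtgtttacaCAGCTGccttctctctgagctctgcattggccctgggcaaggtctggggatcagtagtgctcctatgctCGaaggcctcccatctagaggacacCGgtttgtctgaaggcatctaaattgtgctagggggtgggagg
chr1:121153528-121153827, between genes, nearest start site Inhbb: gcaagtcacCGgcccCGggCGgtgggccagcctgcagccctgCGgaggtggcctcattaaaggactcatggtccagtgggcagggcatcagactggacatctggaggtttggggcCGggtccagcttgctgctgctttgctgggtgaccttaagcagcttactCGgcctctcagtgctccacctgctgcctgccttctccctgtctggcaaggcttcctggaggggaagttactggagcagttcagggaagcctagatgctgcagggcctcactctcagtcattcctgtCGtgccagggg
chr12:111987067-111987366, intron of Wdr20a: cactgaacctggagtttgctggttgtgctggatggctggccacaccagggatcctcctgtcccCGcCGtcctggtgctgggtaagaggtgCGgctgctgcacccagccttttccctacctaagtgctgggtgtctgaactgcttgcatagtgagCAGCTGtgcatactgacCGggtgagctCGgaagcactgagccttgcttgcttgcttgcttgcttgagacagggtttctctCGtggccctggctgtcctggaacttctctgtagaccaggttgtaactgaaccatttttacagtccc
chr15:10279584-10279883, intron of Prlr: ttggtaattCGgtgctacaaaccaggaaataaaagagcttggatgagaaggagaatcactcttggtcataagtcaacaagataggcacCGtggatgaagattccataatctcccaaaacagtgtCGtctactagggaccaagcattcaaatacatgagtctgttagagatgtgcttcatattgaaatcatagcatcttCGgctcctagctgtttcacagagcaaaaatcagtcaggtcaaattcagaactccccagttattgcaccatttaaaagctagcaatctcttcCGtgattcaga
chr6:125542613-125542912, intron of Vwf: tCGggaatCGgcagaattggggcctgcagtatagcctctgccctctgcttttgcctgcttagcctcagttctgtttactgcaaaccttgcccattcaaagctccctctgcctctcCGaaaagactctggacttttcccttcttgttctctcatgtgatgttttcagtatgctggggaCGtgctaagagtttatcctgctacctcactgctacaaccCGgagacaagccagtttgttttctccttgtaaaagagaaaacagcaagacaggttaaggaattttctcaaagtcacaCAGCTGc
chr12:25436675-25436974, between genes, nearest start site Rrm2: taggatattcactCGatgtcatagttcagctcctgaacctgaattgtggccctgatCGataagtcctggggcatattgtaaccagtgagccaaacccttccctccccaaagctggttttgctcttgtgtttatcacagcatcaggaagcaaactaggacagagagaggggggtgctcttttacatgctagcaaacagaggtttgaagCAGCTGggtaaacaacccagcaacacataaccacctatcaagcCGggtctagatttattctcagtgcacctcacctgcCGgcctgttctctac

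Of these 7 stretches 5 hold 1 copy of CAGCTG, and the hexamer is taken up again with the sequence features of all members. The stretches differ in CpG number, from 4 in the first to 7 in the third.

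Averaged over the 455 windows, dams stood at 47.7% ± 1.74 (SD, n = 6), sires at 70.6% ± 0.854, sons at 70.9% ± 0.613 and daughters at 69.7% ± 0.842. The 6 dams ran from 45.4% over a median of 48.0% to 49.97%, and the lowest of the other 18 animals, a daughter, had 69.0%. Over all 1456902 windows the groups lay closer together, with 78.1% ± 0.385 in dams and 78.5% ± 0.263 in daughters. There the 3 B6 dams, at 77.6% to 77.8%, were below all 21 other animals, while the C3 dams had 78.4% ± 0.122 (SD, n = 3). Over all autosomal CpGs the B6 dams were likewise the lowest animals. The part of this general shift in the members was not tested. In bulk liver, a lower level in all cells and a change in the share of cell types cannot be told apart from these counts. In liver sections of its animals the paper saw no histologic difference in any group. It also saw no difference in cell size between dams and virgin females or males. The promoters of 41 of 43 listed markers of hepatocytes, Kupffer cells, endothelial cells, stellate cells, cholangiocytes and leukocytes were measured. None of them had all 6 dams below all 18 others, a pattern of 0.0658% of all windows, so this count says little about the markers. The mean of the leukocyte list was 81.1% to 84.2% in dams and 80.9% to 85.6% in the other animals, that of the Kupffer cell list 81.6% to 85.8% and 80.1% to 84.9%, and that of the hepatocyte list 20.0% to 25.9% and 18.6% to 29.4%. For the endothelial cell list the ranges were 49.5% to 53.0% in dams and 46.1% to 54.6% in the others. They were 18.2% to 21.9% and 16.8% to 21.9% for stellate cells, and 40.2% to 48.2% and 39.3% to 47.5% for cholangiocytes.

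**Figure D1:**
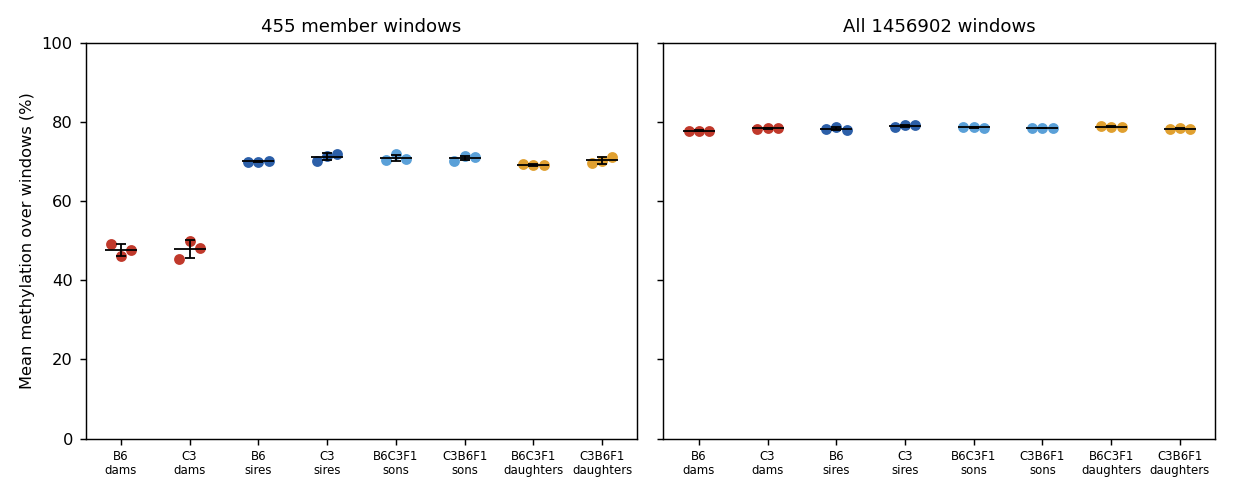
Mean methylation (%, y axis from 0 to 100) of each of 24 animals over the 455 members (left) and over all 1456902 windows (right), by strain or cross and family role on the x axis. Points are animals, bars the mean ± SD of 3 animals. Over the members the 6 dams lie between 45.4% and 49.97% and the other 18 animals between 69.0% and 72.0%.

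Counts on autosomal CpGs totalled 365740739 to 619888157 per animal, or 19.4 to 32.8 reads per CpG. Over the members, dams had 20.4 to 34.0 counts per CpG and the other animals 19.02 to 34.2, so their ranges overlapped. The lowest count in any animal of a member window was 31, and the median over members of that lowest count was 120.

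In 349 of the 455 members every dam lay below every one of the 18 other animals, a pattern that 0.0658% of all windows showed. The rule used the same values, so nothing is read from that contrast. The shortfall, defined as the lowest of the means of sires, sons and daughters minus the mean of dams, had a median of 18.4 points and reached 55.4 points. It was at least 30 points in 40 members. The 5 members just inside the 15-point limit had shortfalls of 15.01 to 15.04 points, and the 5 windows just outside it 14.94 to 14.99 points. Levels of dams in the members were mostly intermediate. Dams had a median of 48.0% over the members (quartiles 36.6% and 59.7%) against 72.6% in sires, 72.8% in sons and 71.6% in daughters. In 36 members dams were under 50% while each of the other means was at least 70%. Within the groups, dams had a median SD of 5.81 points per member against 4.38 in sires, 3.79 in sons and 3.65 in daughters, but the choice admits windows low in the dams of 1 strain, which widens the SD of dams.

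The windows described next were ranked by shortfall among the 349 in which every dam lay below every other animal, so that separation is given by the choice. The largest shortfall lay on chromosome 4, between genes and 50082 bp from the nearest start site of a protein-coding transcript, that of AI427809. The 6 dams had 17.4% at the lowest, 24.4% at the median and 39.7% at the highest, and the other 18 animals 77.9% to 90.1%. The gap between the highest dam and the lowest other animal was therefore wider than the whole range within either set. In an intron of Mtap6, a gene for a microtubule-stabilising protein, dams had 20.7% to 32.5% around a median of 27.9%, and the lowest other animal 72.9%. No CpG of this window had 10 reads in each animal. The intergenic window on chromosome 1, 164825 bp from the start site of Inhbb (the inhibin beta B subunit), had 18.0% to 32.2% in dams and at least 66.4% elsewhere. Its shortfall of 49.7 points was 42.1 points when only CpGs with at least 10 reads in each animal were used. In the Wdr20a intron dams ranged from 29.8% to 43.8%, with 81.7% as the lowest value in the others.

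The next windows in the order of shortfall had similar levels. Dams averaged 29.7% ± 3.33 (SD, n = 6) in an intergenic window 11047 bp from the start site of Agfg2, where daughters averaged 75.2% ± 2.82. Near Fam20c, which encodes a kinase of secreted proteins, dams averaged 42.3% ± 3.99 and daughters 90.6% ± 1.81. Near Fam84b the 2 means were 44.3% ± 5.26 and 89.8% ± 1.84. All 3 windows lay between genes and are named by the nearest start site, with Agfg2, Fam20c and Fam84b more than 10 kb away. An intronic window of Myst4, a histone acetyltransferase gene, had 33.8% ± 7.51 in dams and 82.1% ± 3.25 in daughters. An intronic window of Dnajc12, which encodes a co-chaperone of aromatic amino acid hydroxylases, had 52.5% ± 7.03 in dams and 95.1% ± 2.10 in daughters. The 10th window, on chromosome 18 and 98008 bp from the start site of the transcription factor gene Gata6, had 32.4% ± 6.91 in dams and 75.1% ± 2.07 in daughters. Of these 10 windows 4 were intronic and 6 intergenic, and 2 of the 10 held an SNV listed by the authors for these strains.

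**Figure D2:**
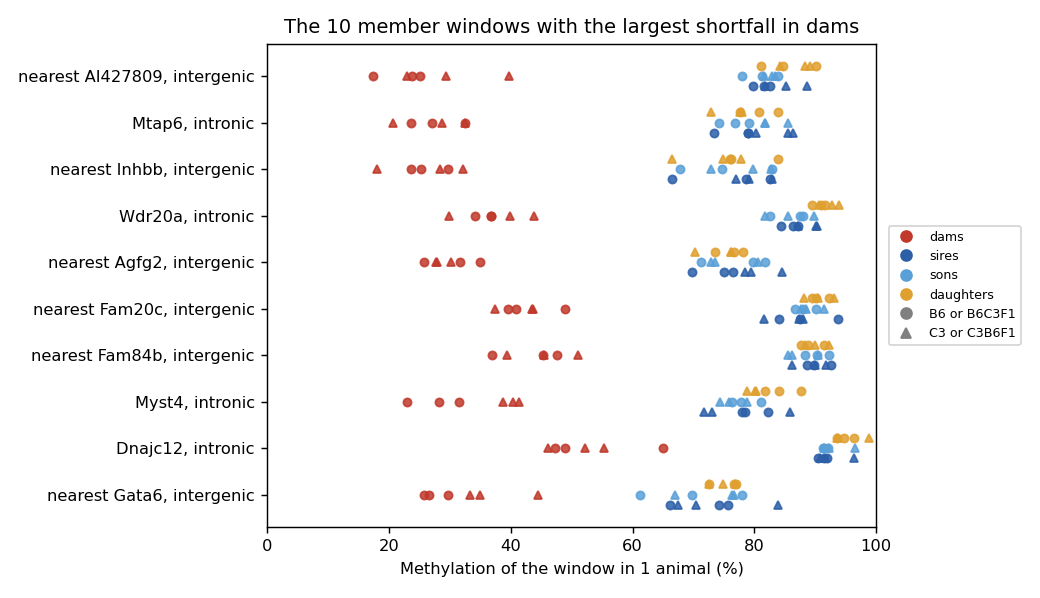
Methylation (%, x axis) of each animal in the 10 members with the largest shortfall, 1 window per row, named by the gene that holds it or the nearest start site. Red points are dams, with circles for B6 and B6C3F1 and triangles for C3 and C3B6F1. In each row the 6 dams lie to the left of the 18 other animals, as the ranking required.

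A protein-coding gene held 261 of the members, and 311 had such a gene within 10 kb. In all, 296 of 20886 protein-coding genes with a tested window (1.42%) had a member in the gene or within 10 kb, and 47 had 2 or more. Among the genes of the prolactin and growth hormone list, 3 of 18 had a member, with 9 member windows of 1242 (0.725%) against 0.0326% of the windows of all protein-coding genes. The lists were chosen with earlier results of these data known, so these shares are a description. Members lay at both receptors and at 1 feedback inhibitor, and at none of Jak2, Stat5a, Stat5b, Igf1 or Cish.

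Prlr, the prolactin receptor gene, held 6 members over chr15:10111001-10280500, all intronic. In the strongest the dams ranged from 56.7% to 70%, and the lowest other animal had 83.3%. In the weakest the dams ranged from 27.5% to 39.1% and the lowest other animal had 40.6%, close to the highest dam. The means of daughters at all 6 windows were lower than those of sires and of sons, and in the weakest window they stood at 49.0% ± 4.83 against 56.7% ± 7.38 in sires. B6 and C3 dams were not called different in any of the 6 (limma, adjusted p from 0.288 to 0.973).

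Ghr, the growth hormone receptor gene, held 2 members. The stronger overlapped an exon 144 bp from a start site. Its 6 dams had 34.4% at the lowest, 43.7% at the median and 51.2% at the highest, and no other animal was under 72.8%. The shortfall was 36.7 points over its 5 CpGs and 26.4 points over those with at least 10 reads in each animal. The weaker, intronic, had 47.3% ± 5.36 in dams and 64.3% ± 4.95 in sires. Socs2, which encodes a SOCS inhibitor of growth hormone signalling, had an intronic member of 13 CpGs 1745 bp from its start site, with dams from 59.1% to 76.4% and all others at 86.8% or more.

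The other lists had 0 to 3 genes with a member each, against 1.42% of all genes. Of 27 nuclear receptor genes Ppard, a lipid-sensing receptor, had 2 intronic members, at 54.4% ± 7.37 in dams and 85.3% ± 2.02 in sires for the stronger. Of 23 genes of liver growth and cell cycle, the proliferation marker gene Mki67 had 1 window 3939 bp from its start site, at 62.2% ± 7.99 in dams and 87.9% ± 3.21 in sires. Of 28 lipid genes Me1 (malic enzyme), Lipc (hepatic lipase) and Cd36 (a fatty acid carrier) had 1 each, with shortfalls of 16.1, 20.6 and 18.9 points. The Me1 window also differed between B6 and C3 sires by 22.8 points (limma, adjusted p = 1.12e-06), and dams overlapped other animals there and at Cd36. At Lipc the B6 dams were lower than the C3 dams, at 32.6% ± 4.36 and 47.7% ± 2.78 (SD, n = 3, limma, adjusted p = 0.0027). Of 27 genes of E-box factors, Tcf3, which encodes an E protein that binds E-boxes, had 1 intronic member at 65.4% ± 15.7 in dams and 91.7% ± 0.548 in daughters, with an overlap between dams and others. The 18 hepatocyte transcription factor genes and the 17 bile acid genes with tested windows had 0 members, and at 1.42% fewer than 1 gene in lists of that size would have one. The shares of genes with a member were 16.7% for prolactin and growth hormone signalling, 3.70% for nuclear receptors and for E-box factors, 4.35% for growth and 10.7% for lipid genes.

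In all, 15 genes, Prlr among them, had 3 or more members within 10 kb. The gene model Gm20388, which spans several neighbouring genes on chromosome 8, had 7. Ralgps1 had 5, of which 4 also lay in Angptl2, a secreted angiopoietin-like protein gene nested in it. There the window at chr2:33083501-33084000 had 46.3% to 59.7% in dams and at least 87.7% elsewhere, and the adjoining window had 24.1% to 37.7% and at least 52.7%, with 5 copies of CAGCTG. Vwf had 4 over chr6:125540001-125543000, the strongest at 26.9% to 39.1% in dams and at least 59.2% in the others. The adjoining window, of which a stretch is printed above, had 43.6% to 54.95% in dams and at least 78.1% in the others. Creb3l2, the gene of a membrane-bound bZIP transcription factor, had 4. The metallothionein genes Mt1 and Mt2 shared 3 members outside both genes, with dams at 24.5% against 48.9% in sires, 48.3% in sons and 43.4% in daughters at the lowest of them, where the highest dam overlapped the lowest other animal. Cib4, Cyp2g1, Dnajc12, Farp1, Prkg1, Rps6ka2 and Setd4 had 3 each.

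Some of the genes with 2 members, picked after their values were seen, follow with their values. The pair within 10 kb of Egflam and of Lifr, the leukaemia inhibitory factor receptor gene, had shortfalls of 17.1 and 19.7 points. The pair within 10 kb of Dlg4 and of Asgr1, the gene of a subunit of the asialoglycoprotein receptor of hepatocytes, had 16.4 and 17.6 points. In Aldh1a7, an aldehyde dehydrogenase gene, the pair had 21.1 and 30.0 points. Itih3 and Itih4, which encode plasma inter-alpha-trypsin inhibitor chains, shared a pair with 15.4 and 18.0 points, in which the strains went opposite ways. The shortfall of the first was 9.40 points without B6 dam 2. In it the B6 dams were the lower ones, at 30.4% against 83.6%, and in the second the C3 dams, at 42.1% against 76.0% (limma, adjusted p = 1.44e-10 and 6.32e-07). In Adcy1, an adenylyl cyclase gene, the stronger of 2 adjoining members had 38.0 points. Its dams spread from 24.3% to 56.5%, with B6 dams at 52.1% and C3 dams at 25.1%, and the lowest other animal had 71.2% (limma between dams, adjusted p = 0.000441). The pair near Sirt1 was shared with Dnajc12 and that near Agxt2 with Prlr. BC017612, Chd7, Elmo1, Frmd4a, Gm10293, Gpr179, Grik4, Ldlrad3, Mrpl45, Msra, Pcsk5, Pnpla3, Ptprm, Rbm19, Samm50, Slc45a3, Slc6a9, Tmem64 and Zdhhc14 also had 2, with shortfalls of 15.1 to 26.9 points.

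The rule pools the strains and so fixes the average of the B6 and C3 differences from sires, but not how it divides between them. Dams lay 15 points or more below the sires of their own strain in both strains in 345 of 455 members, only in B6 in 50 and only in C3 in 60. The median difference between dams and sires was -21.0 points in B6 and -21.9 points in C3. All 3 B6 dams lay below all 3 B6 sires in 442 members, against 9.17% of all windows. For C3 the count was 443, against 9.44% of all windows, and both held in 430, against 1.35%. The sires are part of the contrast of the rule, so nothing further is read from these counts. B6 dams and C3 dams averaged 47.6% ± 1.51 (SD, n = 3) and 47.9% ± 2.28 over the members.

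B6 and C3 dams were also compared with each other. The rule used the pooled mean of the same dams, and a window low in the dams of 1 strain can meet it through that mean, so the choice favours such windows and nothing is read from their share. Of the members, 50 were called different between B6 and C3 dams by limma (adjusted p below 0.05 over all windows and at least 15 points), 28 higher in B6 and 22 higher in C3. Of all windows 1.07% were called. Between B6 and C3 sires, 33 members were called, against 1.13% of all windows. The rule used the same sires, so nothing is read from that share either. A listed SNV lay in 22 of the 50 members called in dams and in 64 of the 405 not called, against 22.1% of all windows. Its part in the levels was not tested. The largest difference was in an intergenic window 16496 bp from the start site of P2ry2, a nucleotide receptor gene. There the B6 dams had 85.9%, 87.8% and 88.9% and the C3 dams 26.3%, 38.9% and 27.5% (limma, adjusted p = 1.16e-09). C3 sires had 61.7% ± 6.33 there, between the dams of both strains. The shortfall of this window, 16.2 points, was 2.74 points with counts summed over animals, 9.57 points without C3 dam 1 and 9.82 points without C3 dam 3. The windows near St3gal5 and Itih3 differed in the opposite direction, with B6 dams at 24.3% and 30.4% and C3 dams at 78.4% and 83.6% (limma, adjusted p = 5.01e-11 and 1.44e-10). St3gal5, the gene with the nearest start site, was more than 10 kb from its window. The shortfall of that window, 19.9 points, was 12.8 points without B6 dam 1. In the Tcf3 window B6 dams had 51.8% ± 6.65 and C3 dams 79.1% ± 3.74 (limma, adjusted p = 0.000438).

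Whether the dam-sire difference itself differed between strains was tested as an interaction. By limma 6 members were called, against 0.00172% of all windows, and at an unadjusted p below 0.05 there were 63 with a positive and 24 with a negative difference of B6 from C3, against 2.95% and 2.47% of all windows. The rule used the same dams and sires, so here too nothing is read from the excess over all windows. Leaving out any 1 of the 24 animals left 1 to 5 members called, and without B6 sire 3 there was 1. Without B6 sire 1 or 2 there were 3 and 2, without B6 dam 1, 2 or 3 there were 2, 3 and 3, without C3 sire 1, 2 or 3 there were 2, 2 and 3, and without C3 dam 1 there were 3. The window near Rrm2 shown above lay 42607 bp from the start site of that gene. There the B6 dams had 47.9%, 41.96% and 34.6% and the B6 sires 88.2% ± 0.908, while C3 dams had 92.3% ± 4.73 and C3 sires 93.2% ± 2.24 (limma, adjusted p = 0.0395). At a window 7598 bp from the start site of 2610002J02Rik the pattern was alike, with 38.9% ± 9.38 in B6 dams and 88.4% ± 4.40 in C3 dams (adjusted p = 0.0338, limma). Its shortfall of 19.4 points was 12.6 points without B6 dam 2. In both, only B6 dams were low.

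Another 2 called windows were low in C3 parents of both sexes. In an exonic window of Abca17, an ABC transporter gene, C3 sires had 17.8% ± 1.41 and C3 dams 22.3% ± 6.17, while B6 sires had 68.7% ± 4.61 and B6 dams 30.4% ± 4.81 (limma, adjusted p = 0.0069). Its shortfall of 16.9 points was 10.8 points without B6 sire 3. Near Arrdc2 the C3 sires had 33.2% ± 4.85 and the B6 sires 79.5% ± 5.95 (limma, adjusted p = 0.0200). The label of low only in dams holds there for the pooled means and not for C3 sires. The last 2 went the other way. These 2 and the Arrdc2 window were not among the 3 largest differences, and they are named after their values were seen. In a window named by Med9, the nearest start site but more than 10 kb away, only C3 dams were low. They had 42.1% ± 4.61 against 84.4% ± 2.51 in C3 sires, and B6 dams and B6 sires had 66.9% ± 3.55 and 69.6% ± 3.01 (limma, adjusted p = 0.00129). In an intron of Itpr1, a calcium channel gene, dams of both strains had 43.3% and the sires differed, at 62.8% ± 3.21 in B6 and 85.4% ± 1.87 in C3 (limma, adjusted p = 0.0494).

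**Figure D3:**
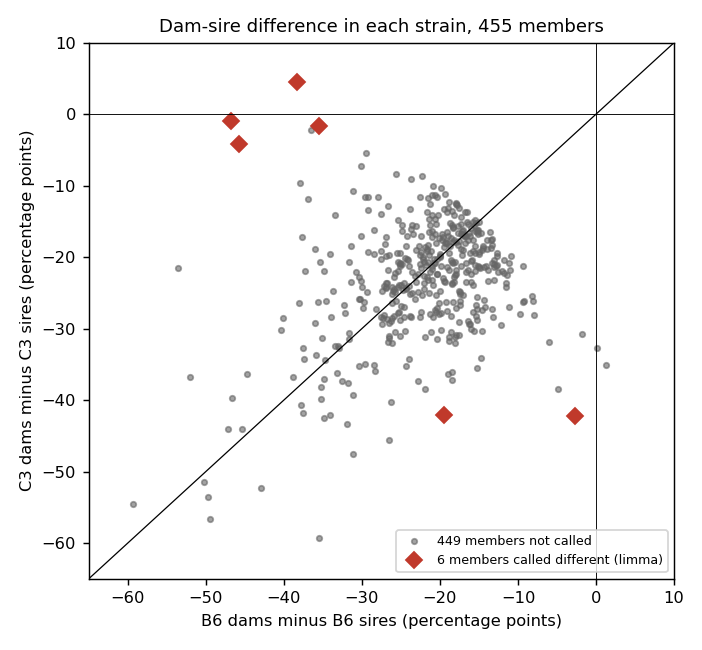
Dam minus sire methylation (percentage points) in B6 (x axis) and in C3 (y axis) for the 455 members. Each point is a window, the diagonal marks equal differences, and red diamonds are the 6 members called different between strains by limma. Most points lie below 0 on both axes.

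Reciprocal crosses were compared as a further contrast. The rule did not use this contrast, but it used the same sons and daughters through their pooled means. By limma 0 of the 455 members differed between B6C3F1 and C3B6F1 animals, against 0.00144% of all windows. Calls were so rare among all windows that 0 says little about the members. At an unadjusted p below 0.05 in limma, 18 of the 455 were higher in B6C3F1 and 28 of the 455 in C3B6F1, against 4.69% and 2.01% of all windows. The second share was above that of all windows, and nothing is read from it. No other tool was run.

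The rule was also applied to 12 animals at a time, so that its windows could be measured in the other 12. In the B6 arm (B6 dams, B6 sires and B6C3F1 offspring) 420 windows met it, of which 292 were members. In the C3 animals, whose values did not enter that choice, 249 of the 420 were called lower in dams by limma, against 0.180% of all windows. That fit takes its spread from all 24 animals, and its contrast is C3 dams minus the mean of the 3 other groups of the arm. The rule itself was set with earlier results of these data known, so the values of both arms are a description and no replication. With a fit over the 12 animals of the C3 arm alone, added after the data were seen, 247 were called, against 0.174% of all windows. In the C3 arm, 210 of the 420 (50%) had the dam mean 15 points or more below each other mean, against 0.0530% of all windows. The 3 C3 dams lay below all 9 other C3 arm animals in 299 of the 420 (71.2%, against 1.24%). Chosen in the C3 arm were 627 windows. Of these 275 were called lower in B6 dams by limma, against 0.0925% of all windows, and 278 with a fit over the 12 animals of the B6 arm alone, against 0.0944%. Of the 627, 215 had the gap of 15 points (34.3%, against 0.0340%). The 3 B6 dams lay below all 9 other B6 arm animals in 353 (56.3%, against 1.84%). Both arms met the rule at 195 windows. In the opposite direction 3 of the 420 and 0 of the 627 were called, against 2222 and 1114 of all 1456902 windows. As a share, this was above that of all windows for the 420 and below it for the 627. The arms share no animal, but B6C3F1 offspring had C3 sires and C3B6F1 offspring B6 sires.

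The CpGs of a member are those whose counts the rule used, so their values are a description. Of their 3277 CpGs, 2949 (90.0%) had dams below each of the other groups with counts summed over animals, 1857 (56.7%) by at least 15 points and 738 (22.5%) by at least 30. In 248 members this order held at every CpG. The central bins around the members are the chosen windows themselves. The bins outside them also hold CpGs of other members, since 59 members adjoined another and 114 lay at places with 2 or more. Their values are therefore not free of the rule and are a description as well. From the centre to 250 bp on its right, dams had 46.8% and sires 69.8%, while 500 to 750 bp away the values were 70.3% and 74.8%. Between 4500 and 4750 bp from the centre the mean difference of the others from dams was 1.00 points on the left and 0.478 points on the right. Tested windows that adjoined a member and were not members themselves were counted once for each member they adjoined. They had a median difference of 3.10 points, against 0.450 in all windows. Among them 39.1% differed by at least 5 points, against 1.80% of all windows. At 1000 bp the median was 0.756.

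**Figure D4:**
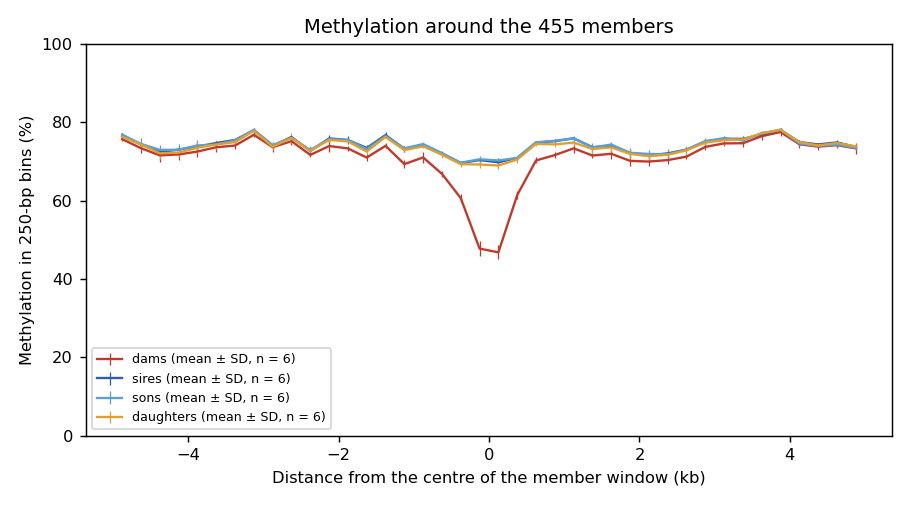
Methylation (%, y axis from 0 to 100) in bins of 250 bp by distance in kb from the centre of the 455 members (x axis). Lines are the means of 6 dams, sires, sons and daughters, and bars the SD. The line of dams falls to 46.8% at the centre, where the other 3 lines stay near 70%, and the lines come close together toward both ends.

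The members lay at 393 places when those at most 10 kb apart were joined. At 341 places there was 1 member, and 8 places had 3 or more. Per tested window, chromosomes 19 and 15 had the most, with 25 and 36 members (0.0586% and 0.0563% of their windows). Members were exonic in 15.2%, intronic in 43.5% and intergenic in 41.3%, against 15.5%, 38.7% and 45.7% of all windows. They were within 1 kb of a start site in 4.18%, against 6.10%, and 1 to 10 kb from it in 23.96%, against 20.2%. Their median CpG number was 7, as in all windows, and their median GC content 48.4% against 46%. A listed SNV lay in 18.9% of members and 22.1% of all windows.

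Sequence motifs were not used by the rule. An E-box is the sequence CANNTG, with N any base, bound by basic helix-loop-helix proteins and by some zinc finger proteins. The paper had already reported that most motifs enriched in regions lower in dams than in sires held an E-box. That result came from the same dams and sires, so the shares below are a description. The E-box CAGCTG, which reads the same on both strands, was in 266 of 455 members (58.5%) and in 22.6% of all windows, with 0.809 and 0.265 copies per window. Of the windows that hold it, 0.0809% were members, against 0.0168% of the windows without it. With 2 or more copies the share was 0.145%. Among members, those with the hexamer had a median shortfall of 19.1 points and those without it 18.1 points.

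The share of windows with CAGCTG changed with the size of the deviation of dams. It was 29.3% in windows with dams 5 to 10 points below the other means, 41.4% at 10 to 15 points and 58.5% in the members. In the upward direction it was 25.5% at 5 to 10 points, 20.8% at 10 to 15 points and 11.1% in the 18 windows high only in dams, 2 windows. In windows that met the rule in both arms it was 61.0%.

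**Figure D5:**
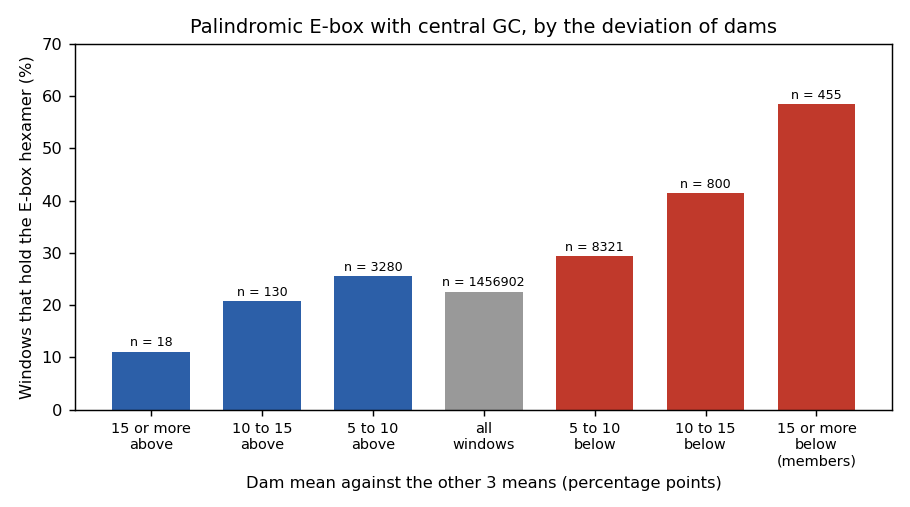
Share of windows (%, y axis from 0) that hold the palindromic E-box with GC at its centre, by how far the dam mean lies above (blue) or below (red) the other 3 means, and for all windows (grey). Numbers above the bars are windows. The bars rise from 29.3% to 58.5% as dams fall further below.

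The difference in share was also present within bands of GC content. In the band of 46 to 50% GC, 60.3% of members and 24.6% of all windows held CAGCTG, and under 42% GC the shares were 36.4% and 12.7%. It was present within bands of methylation level as well. Where the mean of sires, sons and daughters was 85% or more, 54.2% of members and 21.6% of all windows held it, and at 50 to 70% the shares were 61.6% and 25.8%. Windows with both GC content and level inside the members' quartile ranges held it in 26.1%, and the 111 members among them in 60.4%.

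In all, 10 hexamers fit CANNTG when a sequence and its reverse complement count as 1. CAGCTG was more than 1.5 times as frequent among members as among all windows. Of the other 9 the same held only for CACCTG, counted on both strands and singled out after these shares were seen. It was in 55.8% of members and 32.9% of all windows, and in 55.0% and 32.3% of those without CAGCTG. Either was in 81.3% of members and 47.6% of all windows. CACGTG, the form bound by MYC and the clock proteins, was in 11.4% and 9.11%, and CATATG in 9.45% and 11.6%. With its neighbouring bases, CAGCTG was most over-represented as ACAGCTGC (15.4% against 3.22%) and ACAGCTGT (7.69% against 1.80%), and least as CCAGCTGA (5.27% against 3.01%).

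The other motifs differed less. TTCNNNGAA, the form bound by STAT proteins, was in 14.1% of members and 15.7% of all windows. TGTTTAC, a forkhead form, was in 10.3% and 7.05%, TGANTCA, an AP-1 form, in 17.6% and 14.0%, and AGGTCA, a form bound by nuclear receptors, in 36.3% and 27.6%. The palindromic oestrogen response element was in 0 members and 0.0572% of all windows. All were searched on both strands, and a match marks letters and no binding. Among CpGs of members, the difference of the others from dams averaged 25.4 points ± 14.8 (SD over 295 CpGs) within 25 bp of a CAGCTG, 26.4 ± 15.3 at 51 to 100 bp, 21.5 ± 16.1 beyond 100 and up to 200 bp, and 17.7 ± 15.3 beyond 200 and up to 500 bp. It was 20.9 ± 14.8 at the 824 CpGs farther than 500 bp from a CAGCTG, so the difference did not fall steadily with distance. CpGs of 1 window are not independent, and the window centre and the motif can coincide.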

How the data were processed

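Whole-genome bisulfite sequencing of liver DNA gave, for each of 24 mice, methylated and unmethylated counts at each CpG, which the authors deposited unnormalised. The submitters' processing notes name CASAVA 1.8.2, Bismark 0.7.8, Bowtie 0.12.8, Picard 1.110 and mm9, and the deposited table of strain SNVs holds the base of each strain. A failed bisulfite conversion raises a level. A SNV at a CpG could change it, but the paper limited its analysis to CpGs conserved in mm9 and in both strains. Windows with a listed SNV were counted, without checking that B6 and C3 differ from each other at it.

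Counts were summed over the CpGs of fixed 500-bp windows on 19 autosomes, with Python 3.11.15, numpy 2.4.6 and pandas 2.3.3. The 24 animals were grouped by strain or cross and sex, with 3 in each. Tests used limma 3.58.1 in R 4.3.3 on the log2 ratio of methylated to unmethylated counts, with 1 added to each, 8 group means, and Benjamini-Hochberg adjustment over 1456902 windows. A call needed an adjusted p under 0.05 and 15 points. The fit was tested on simulated data. Litter mates are not identified here, and p-values measure the spread between these animals. The depth was 19.4 to 32.8 reads per CpG. Counts of reads are not independent molecules, and other data of the series were not analysed here.

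The members and gene lists were chosen with earlier results of these data known. Named were the 10 members with the largest shortfall among those in which every dam lay below every other animal and the depth was at least 10 reads per CpG, the windows on either side of the 15-point limit, genes with 2 or more members, members at listed genes, and the 3 largest strain differences per test. Places and sequences were read from the mm9 genome with its GENCODE annotation. Alternatives were other thresholds, depths, grids and scales, a replicate block, and each animal left out.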

Additional observations from a re-analysis of the deposited data

Results flagged for a closer look

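In 112 groups of 6 animals, at named windows and for the mean and depth over members, 7 had an animal whose gap to the nearest other, relative to the range of the group, passed Dixon's critical value at 95%. By the definition of that value chance passes it in about 1 in 20 groups. In dams this concerned the Prlr window at chr15:10279501-10280000, where C3 dam 3 was highest at 70%. In sires it concerned 4 windows. B6 sire 3 was lowest at 66.5% in the window on chromosome 1 nearest to Inhbb, and C3 sire 1 was lowest at 81.5% in the stronger Ppard window. C3 sire 2 was highest at 96.4% in the Dnajc12 window, and C3 sire 3 was highest at 91.7% in the Prlr window at chr15:10160501-10161000. In sons, C3B6F1 son 3 was highest at 96.5% in the Dnajc12 window and C3B6F1 son 2 lowest at 87.7% in the Tcf3 window. None of these animals moved its window's shortfall by more than the SD of dams when it was left out.

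The difference between dams and sires differed between B6 and C3 in 6 members by the interaction test in limma, against 0.00172% of all windows. Given as the B6 minus the C3 difference, it was -45.8 points near Rrm2, -42.8 points in Abca17, -41.6 points near 2610002J02Rik, -33.8 points near Arrdc2, 39.6 points near Med9 and 22.5 points in Itpr1. An SNV listed by the authors lay in 5 of these 6 windows and in 22.1% of all windows, and its part in the levels was not tested. The rule used the same dams and sires and admits windows low in the dams of 1 strain, so nothing is read from the number called. With 1 animal left out, 1 to 5 members were called.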

How the results depend on the processing

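The number of windows low only in dams moved with the thresholds, from 455 to 1255 at a difference of 10 points and 184 at 20 points, and to 692 with at least 3 CpGs and 149 with at least 8. It stayed within 1.5 times of 455 with a spread of 5 points, other coverage minimums, shifted windows or summed counts, although windows of the shifted grid that met the rule overlapped only 263 of the 455, and was 423 to 504 with each animal left out. The 50 members called between B6 and C3 dams became 31 at 20 points and 31 at 100 counts, and 38 to 51 with an animal left out. Between sires the 33 became 16 at 20 points, 61 with no minimum difference and 15 at 100 counts, where fewer windows were tested, and 30 to 34 with an animal left out. The 6 members with a strain-dependent difference became 1 to 5 with an animal left out. Windows chosen in the B6 arm and called lower in C3 dams numbered 155 at 20 points and 218 to 255 with an animal left out, and those chosen in the C3 arm and called in B6 dams 181 and 246 to 280. Between reciprocal crosses 0 members were called under every alternative run, which says little, since only 0.00144% of all windows were called in the main run. Same-numbered animals were not treated as paired, since 0 of 84 pairs had a correlation above 0.1 (r from -0.0088 to 0.0649). Of these, 49 correlated best with their own number, where 1 number of 3 would give 28, a hint of pairing from the data that the labels do not give. With the replicate number as a block the counts were 49, 33, 5, 0, 249 and 276. The shortfall of 123 named windows moved by less than 1 SD of dams with an animal left out or counts summed, but that SD is near 30 points where the strains differ. It fell under 15 points in 8 with counts summed, in 34 with some animal left out, and in 4 of 121 with CpGs of at least 10 reads in each animal, where 5 moved by more than the SD. Shallow windows, with as few as 31 counts in an animal, limit single levels more than group means.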

Other observations

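Windows high only in dams, the opposite pattern, numbered 18, and in 5 of them every dam lay above every other animal. Windows high only in daughters numbered 7, with 3 in which every daughter lay above the others, and 1 window was high only in sires. Adjoining windows that were not members were counted once for each member they adjoined. Of these counts, 34 of 440 (7.73%) had all 6 dams below all 18 other animals, against 0.0658% of all windows.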
